A study of Mus musculus with 51 samples.

Results

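The cytosolic ribosomal protein genes were taken as the rows whose symbol is Rpl or Rps followed by a number, with an optional a, x or l and further digits, together with Rplp0, Rplp1, Rplp2 and Rpsa. Of 85 symbols of this form, 81 had a mean of at least 1 CPM (the usual depth-scaled unit, the counts of a gene relative to all counts in genes of its library) over the 51 libraries, out of 24421 genes in all, and these 81 are described here. They comprised 45 proteins of the 60S subunit, 3 proteins of its stalk (Rplp0, Rplp1, Rplp2) and 33 proteins of the 40S subunit. The lowest members were Rpl34 at 2.42 CPM, Rps27 at 2.60 CPM and Rpl30 at 6.10 CPM, and the 4 symbols below the minimum were Rpl3l at 0.23 CPM, Rpl39l at 0.191 CPM, Rpl26 at 0.0985 CPM and Rpl10l, which had no counts. Rpl26 had 40 counts over the 51 libraries. Few counts do not show that a gene is not expressed, and their cause was not tested. All 81 members passed the filter on low counts in astrocytes and in total homogenate, and 79 passed it in microglia, where Rpl34 and Rps27 did not.

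RNA came from the prefrontal cortex of 17 male C57BL/6J mice bought at 8 weeks of age, of which 8 were control mice and 9 were given chronic intermittent ethanol vapor (CIE). The CIE mice were injected with 1.6 g/kg ethanol and breathed air with 15 to 20 mg/L ethanol for 16 h per day in 4 weekly cycles. The control mice were injected with saline and breathed fresh air on the same schedule, and mice of both groups carried 1 mmol/kg pyrazole, an inhibitor of alcohol dehydrogenase. Each mouse gave 3 preparations, which were astrocytes held on ACSA2 beads, microglia held on CD11b beads from the cells that were left, and total homogenate set aside before enzymatic dissociation. CD11b is also a surface protein of neutrophils and monocytes, and total homogenate did not go through the dissociation, the Percoll step or the columns.

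Cytosolic ribosomal proteins are built into the small subunit, which reads the mRNA, and the large subunit, which forms peptide bonds, and the subunits need each protein in about equal number. Their mRNAs are among the most abundant of a cell, and most begin at a C followed by a run of pyrimidines, the 5′ terminal oligopyrimidine (TOP) motif, through which mTORC1 controls their translation. In the brain, glia and neurons differ widely in size and in how much protein they make, and mRNAs of this family are also translated away from the cell body.

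The start regions are shown for the 40S proteins Rps6 and Rpsa, the stalk proteins Rplp0 and Rplp2, and both genes of 2 paralog pairs. Each window runs 5′ to 3′ over 15 bases before and 15 bases from the annotated start, taken from RefSeq on GRCm38.p6, and capitals mark a run of at least 6 bases of C or T that begins with C and starts within 5 bases of the annotated start. Rps27l and Rpl22 have 2 annotated starts each, and both are shown.
Rps6 (chr4:86857353-86857382, minus strand): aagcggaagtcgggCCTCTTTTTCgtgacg
Rpsa (chr9:120127751-120127780, plus strand): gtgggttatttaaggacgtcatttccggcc
Rplp0 (chr5:115559452-115559481, plus strand): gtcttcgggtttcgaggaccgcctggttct
Rplp2 (chr7:141447636-141447665, plus strand): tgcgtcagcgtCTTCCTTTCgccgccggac
Rps27 (chr3:90213634-90213663, minus strand): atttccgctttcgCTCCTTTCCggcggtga
Rps27l (first start, chr9:66946071-66946100, plus strand): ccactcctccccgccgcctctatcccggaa
Rps27l (second start, chr9:66946398-66946427, plus strand): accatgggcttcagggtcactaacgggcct
Rpl22 (first start, chr4:152324421-152324450, plus strand): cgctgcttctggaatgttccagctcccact
Rpl22 (second start, chr4:152325711-152325740, plus strand): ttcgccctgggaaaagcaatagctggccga
Rpl22l1 (chr3:28805493-28805522, plus strand): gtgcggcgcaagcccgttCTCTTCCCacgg

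A run of this kind stood at the start in 26 of the 60 members with a RefSeq promoter (43.3%), against 11.9% of the 17224 genes of the files with one. A gene with several starts was counted if any of them had a match. The letters CCGGAAG, which ETS family factors such as GABP bind, were found on either strand within 250 bases before and 50 bases after the start in 40% of those members and 12.8% of those genes. CTTCCGG, the reverse complement of these letters, begins with pyrimidines, so that both matches can share bases. No match says only that these letters are not in the window searched.

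Counts in genes ranged from 2082289 to 10041788 per library in astrocytes, from 571878 to 6026453 in microglia and from 5042926 to 15594154 in total homogenate. Set against total homogenate in control mice, the ACSA2 preparation was higher in 9 of 10 astrocyte markers, all 10 microglial markers and all 8 oligodendrocyte markers, and the CD11b preparation was higher in all 10 microglial markers and lower in all 10 astrocyte markers, while all 10 neuronal markers were lower in both. Oligodendrocyte markers summed to 15956 to 22636 CPM in control astrocytes, beside 10461 to 18265 CPM for astrocyte markers, so that this preparation held both kinds of RNA. The 11 immediate early genes were higher in astrocytes (median log2 difference 3.69) and in microglia (5.87) than in total homogenate. Their part in the differences between preparations was not tested.

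1 library stood apart for the ribosomal protein genes, namely microglia of control mouse 19, with 1210680 counts in genes. Ribosomal protein genes took 2.32% of its counts, against 1.2% to 1.67% in the other control microglia. Reads that mapped to several places came to 123% of the counts in genes there, against 18.3% to 91.9% in the other control microglia. This library is called microglia 19 below. Several counts and medians over all members, and some single values, are given with and without it. Other values that use it, such as those by subunit, for related genes or for paralogs, are given only with it.

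The share of all counts that fell in the 81 genes was lowest in astrocytes and highest in microglia. In control mice it ranged from 0.601% to 0.993% (median 0.762%) in astrocytes, from 0.858% to 1.14% (median 0.971%) in total homogenate and from 1.2% to 2.32% (median 1.42%) in microglia. In CIE mice it ranged from 0.689% to 0.912% (median 0.829%) in astrocytes, from 0.799% to 1.25% (median 1.04%) in total homogenate and from 0.974% to 1.93% (median 1.44%) in microglia. In each preparation the ranges of control and CIE mice overlapped. In control mice the ranges of microglia and total homogenate did not overlap, with 1.2% as the lowest value in microglia and 1.14% as the highest in total homogenate, whereas in CIE mice they did. In bulk preparations fewer cells of a type and less RNA per cell cannot be told apart, and a share says nothing of the amount of RNA. Duplicate reads were removed before counting, and depth differed between the preparations. The part of both in these shares and in the differences between preparations was not tested.

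**Figure D1:**
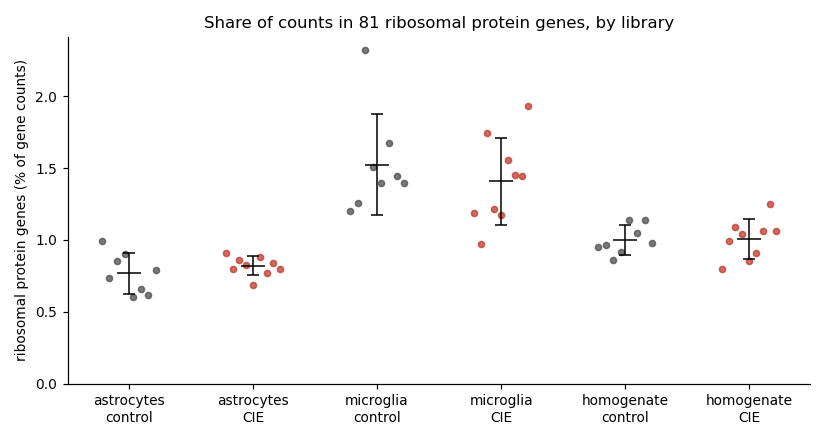
Share of counts in genes (%, y axis) that fell in the 81 ribosomal protein genes, by preparation and treatment (x axis); each point is 1 library (8 control or 9 CIE mice), and bars give mean and SD. Astrocyte libraries sit at or below 0.993%, and microglia of control mouse 19 stand alone at 2.32%.

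Differences between preparations were tested in control mice, in 1 fit of the 24 control libraries with edgeR. Against astrocytes, 80 of 81 ribosomal protein genes were higher in microglia and none was lower, with a median log2 difference of 1.29. Over all 13672 genes tested in this contrast, 35.3% were called higher and 36.6% lower, and the median was -0.02. The exception was Rps27l, a paralog of Rps27 that p53 is known to induce, at -0.00 (95% interval -0.35 to 0.34). Against total homogenate, 73 members were higher in microglia and none was lower, with a median of 0.80, where 39.8% of all genes were higher and 44.6% lower. Astrocytes went the other way, with 56 members lower than in total homogenate, 2 higher and a median of -0.48, where 41% of all genes were higher and 37.8% lower. The order of the mean levels was microglia, total homogenate, astrocytes for 71 of 81 members in control mice and for 69 in CIE mice. Many neighbours in that order overlapped, since the libraries of microglia and total homogenate were fully separate for 54 members and those of astrocytes and total homogenate for 36, against 59.7% and 54.3% of all genes tested. Microglia and astrocytes were fully separate for 75 members, against 41.3% of all genes.

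These counts held with small changes without microglia 19, where 80 members were higher in microglia than in astrocytes (median 1.23), 68 higher and 1 lower than in total homogenate (median 0.68), and 64 lower and 2 higher in astrocytes than in total homogenate (median -0.54). In the CIE mice, a comparison added after seeing the data, 60 members were higher and 2 lower in microglia than in total homogenate (median 0.49). There, 80 were higher and none lower in microglia than in astrocytes (median 0.93), and 3 were higher and 61 lower in astrocytes than in total homogenate (median -0.45). The shares of all genes called in the fits without microglia 19 and in CIE mice are not given here. Scaling to library totals moved the median of all genes to -0.31 in both microglial contrasts. Relative to the median of all genes, the members' median was then 1.31 against astrocytes and 0.88 against total homogenate, compared with 1.31 and 0.90 under TMM scaling, and 34.6% instead of 49.1% of all calls between microglia and astrocytes were higher.

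The stalk is the arm of the 60S subunit that recruits elongation factors. Rplp0, its base, had 448 to 656 CPM (scaled by TMM over all libraries, median 492) in control microglia, 151 to 186 CPM (median 175) in total homogenate and 147 to 213 CPM (median 186) in astrocytes. All microglial libraries were thus above all others, and astrocytes and total homogenate overlapped. Rplp0 was 3.15-fold higher in microglia than in total homogenate (log2 difference 1.65, SE 0.10, adjusted p = 8.14e-15), and 0.17 (SE 0.10, adjusted p = 0.119) separated astrocytes from total homogenate. Under scaling to library totals this difference was 0.25 with an adjusted p of 0.033.

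The acidic proteins Rplp1 and Rplp2, which Rplp0 carries, both lay below total homogenate in astrocytes, and only Rplp1 passed the test there. Rplp1 ranged from 369 to 712 CPM (median 395) in control microglia, from 237 to 345 CPM (median 277) in total homogenate and from 95 to 158 CPM (median 125) in astrocytes, with no overlap between the preparations. Its log2 difference was 0.71 (SE 0.14) between microglia and total homogenate and -1.06 (SE 0.14) between astrocytes and total homogenate, both past the threshold. Rplp2 was higher in microglia (1.23, SE 0.13) and lay at -0.26 (SE 0.13, adjusted p = 0.0670) in astrocytes against total homogenate. Microglia 19 held the highest microglial value of all 3 stalk genes.

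**Figure D2:**
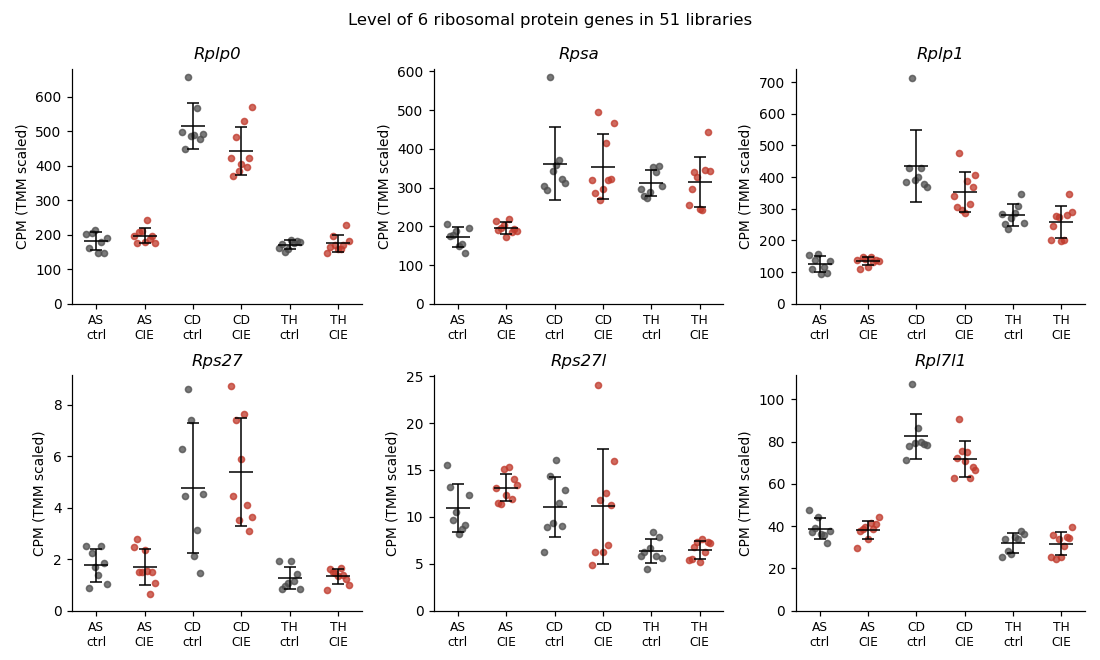
CPM (y axis, TMM scaled over all 51 libraries) of Rplp0, Rpsa, Rplp1, Rps27, Rps27l and Rpl7l1 in each library by preparation (AS, astrocytes; CD, microglia; TH, total homogenate) and treatment; bars give mean and SD. Rplp0 is at 369 CPM or more in every microglial library and at 242 CPM or less in every other, while Rps27l has its lowest means in total homogenate.

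In the 60S subunit, 38 of 45 proteins were higher in microglia than in total homogenate (median 0.74), all 45 were higher in microglia than in astrocytes (median 1.21), and 33 were lower and 1 higher in astrocytes than in total homogenate (median -0.53). Rpl10, an X-linked protein that joins late in 60S maturation, was among the highest in microglia, with 318 to 609 CPM (median 396) against 106 to 152 CPM (median 126) in total homogenate, a difference of 1.73 (SE 0.13). Rpl5 and Rpl11, which form a particle with 5S rRNA and can bind Mdm2, were higher in microglia by 0.97 (SE 0.11) and 0.88 (SE 0.13), and lower in astrocytes, with log2 differences of -0.28 (SE 0.11, adjusted p = 0.0214) and -0.33 (SE 0.13, adjusted p = 0.0244).

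Rpl38, known for its part in the translation of Hox mRNAs, had 51.9 to 104 CPM (median 60.2) in control microglia and 58.3 to 95.2 CPM (median 74.8) in total homogenate. The groups overlapped, and the difference was -0.16 (SE 0.14, adjusted p = 0.283). It was called lower without microglia 19 (-0.29, adjusted p = 0.0279), under library totals (-0.38, adjusted p = 0.0106) and in CIE mice (-0.36, adjusted p = 0.00806). Rpl41, one of the shortest proteins known, lay at 0.01 (SE 0.14) in the same contrast, a sign that changed to -0.09 under RLE scaling and -0.22 under library totals. In astrocytes both were lower than in total homogenate, with differences of -0.93 (SE 0.13) and -0.94 (SE 0.14). Rpl37 showed the largest gap of the 60S proteins there, at -1.11 (SE 0.15), with 37.5 to 66.0 CPM in astrocytes and 100.2 to 156 CPM in total homogenate.

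In the 40S subunit, 32 of 33 proteins were higher in microglia than in total homogenate (median 0.90) and 32 of 33 were higher in microglia than in astrocytes (median 1.31), while 22 were lower and 1 higher in astrocytes than in total homogenate (median -0.41). Rps9, which lies near the mRNA entry of the small subunit, had the largest difference between microglia and total homogenate, 1.95 (SE 0.14), with 389 to 734 CPM against 112 to 144 CPM. Rps6, the substrate of the S6 kinases below mTORC1, was higher in microglia by 1.15 (SE 0.10), and its level was 69.2 to 102 CPM in astrocytes and 80.8 to 106 CPM in total homogenate. That difference was -0.02 (95% interval -0.23 to 0.18), and it was 0.05 under scaling to library totals.

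Rpsa, which is also described as a laminin receptor, differed from most members. It had 295 to 585 CPM (median 333) in control microglia, 274 to 355 CPM (median 301) in total homogenate and 130 to 205 CPM (median 177) in astrocytes. Astrocytes were below all other control libraries, with a difference of -0.76 (SE 0.13, adjusted p = 3.75e-06) against total homogenate. Microglia and total homogenate overlapped, and their difference of 0.28 (SE 0.13, adjusted p = 0.0407) did not pass the threshold with the mouse as a replicate block (0.25, adjusted p = 0.0805), without microglia 19 (0.13, adjusted p = 0.206), with DESeq2 or RLE scaling (both 0.18), without the filter on low counts (0.14) or with library total scaling (0.05). Rps15, in the decoding region, was another member near 0 in this contrast, at 0.15 (SE 0.12), and -0.09 under library totals.

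**Figure D3:**
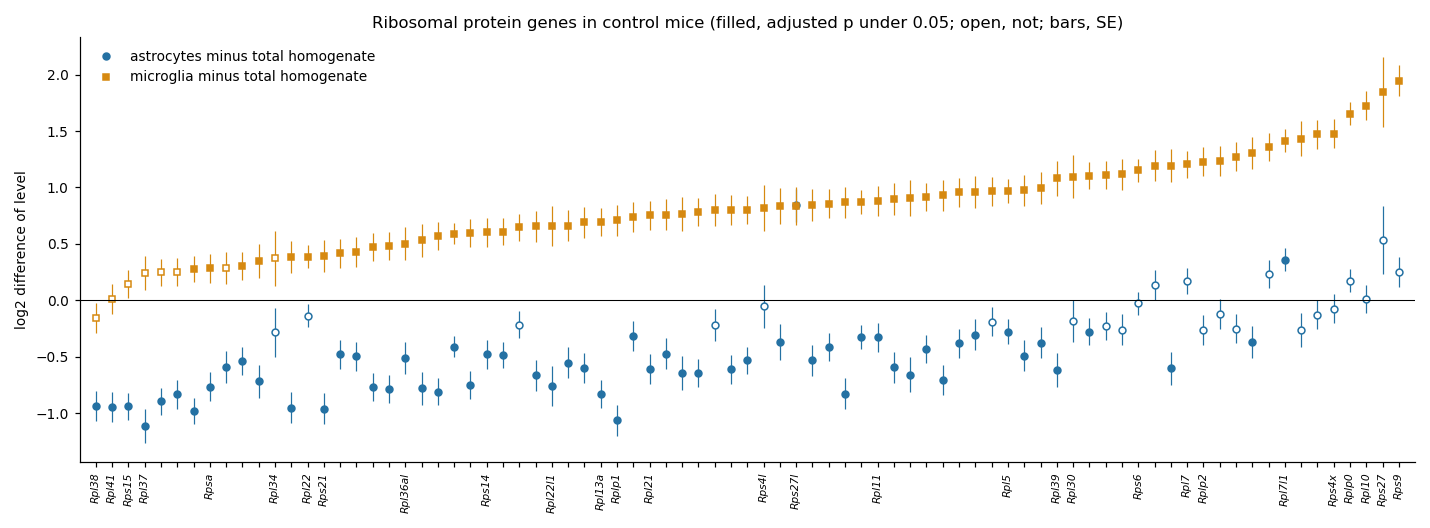
Log2 difference of level (y axis) of each of the 81 genes (x axis, ordered by the microglial contrast, with the genes described in the text labelled) between astrocytes and total homogenate (circles) and between microglia and total homogenate (squares) in control mice; bars give SE, and filled symbols have an edgeR adjusted p under 0.05. Squares rise from -0.16 for Rpl38 to 1.95 for Rps9, and only Rps27l and Rpl7l1 have filled circles above 0, where the circle of Rps27l lies under its square.

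5 members are paralogs of another member. Rps27l was higher in astrocytes than in total homogenate by 0.84 (SE 0.15, adjusted p = 7.98e-06), with 8.2 to 15.5 CPM against 4.40 to 8.34 CPM, and by 0.84 (SE 0.17) in microglia. Rpl7l1, a paralog of Rpl7 that acts in 60S assembly, was higher in astrocytes by 0.36 (SE 0.10, adjusted p = 0.00164) and in microglia by 1.42 (SE 0.10). These were the only members called higher in astrocytes, beside 5 members under scaling to library totals. Rpl7 itself stood at 0.17 (SE 0.12, adjusted p = 0.175) in astrocytes.

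The ratio of each paralog to its partner was compared within the 8 control mice in 15 comparisons, by a two-sided exact permutation test that flips signs over mice, whose smallest possible p is 0.00781 and whose smallest adjusted p was 0.0586. None passed the threshold, and a ratio that alone reached the smallest possible p could not have passed it over 15 comparisons. Rpl22l1 against Rpl22 was lower in astrocytes than in total homogenate in 8 of 8 mice (mean log2 difference -0.59 ± 0.36, SD, n = 8 mice) and in 7 of 9 CIE mice (-0.39). Rps4l against Rps4x was lower in microglia than in total homogenate in 8 of 8 control mice (-0.72) but in 5 of 9 CIE mice (-0.29). Rps27l against Rps27 was lower in microglia than in astrocytes in 5 of 8 control mice (-1.11) and 9 of 9 CIE mice (-1.79), with counts of Rps27 at 1.47 to 8.61 CPM in control microglia.

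Sequence shared with other genes limits single members, since reads that fit several places were left out of the counts. Of 80 members with a transcript to search, 11 shared no 150-base window with an annotated transcript of another gene and 22 shared over 50%. The share was 98.0% for Rps27, 90.9% for Rpl10, 88.2% for Rpl5 and 82.4% for Rps6, but 7.36% for Rplp0, 18.5% for Rpsa and 18.8% for Rps9. The levels of the former are therefore uncertain. The median difference between microglia and total homogenate was 0.80 in the 16 members with under 5% of windows shared and 0.79 in the 22 with over 50%.

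Genes that make or serve ribosomes were counted in the contrast of microglia with astrocytes. Among 21 TOP mRNAs for other proteins, such as elongation factors, 19 were higher in microglia than in astrocytes and none lower (median 0.90). Of 41 factors of ribosome biogenesis, 30 were higher and 2 lower (median 0.48), and of 15 genes of the RNA polymerase I machinery, 12 were higher and none lower (median 0.59). Of 77 mitochondrial ribosomal proteins, 8 were higher and 31 lower (median -0.30), and of 77 nuclear-encoded respiratory chain subunits 1 was higher and 65 lower (median -0.64). These counts compare with 35.3% higher and 36.6% lower over all genes.

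The comparison of CIE with control mice asks whether long ethanol exposure moved these genes in each preparation. No ribosomal protein gene passed an adjusted p of 0.05 with edgeR in astrocytes (0 of 81), microglia (0 of 79) or total homogenate (0 of 81), where 5.13%, 3.47% and 0.25% of all genes tested did. None passed with DESeq2, and at an unadjusted edgeR p under 0.05 there were 5, 7 and 0, against 21%, 16.9% and 9.2% of all genes. In none of the 3 preparations did the control and CIE libraries of any member lie fully apart, as they did for 0.396%, 0.465% and 0.0930% of all genes. The median SE of a log2 difference was 0.14 for microglia, 0.11 for total homogenate and 0.10 for astrocytes, which limits how small a change of 1 gene could be called.

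In astrocytes, 74 of 81 members had a positive log2 difference (CIE minus control) and the median was 0.11, against 0.00 over all genes tested. The median was 0.12 for the 40S proteins, 0.08 for the 60S proteins and 0.12 for the stalk. Leaving out 1 mouse at a time kept the median positive, from 0.05 without control mouse 36 to 0.16 without control mouse 03, and it was 0.06 without control mouse 22 and 0.07 without control mouse 35. The mean log2 level of the members was 5.84 to 6.59 in control astrocytes and 6.14 to 6.45 in CIE astrocytes, so that the CIE libraries lay inside the control range.

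Rps27l had the largest difference in astrocytes. Its level was 8.2 to 15.5 CPM (median 10.1) in control mice and 11.4 to 15.3 CPM (median 13.1) in CIE mice, a log2 difference of 0.29 (95% interval 0.03 to 0.55, edgeR adjusted p = 0.169). The groups overlapped, with the CIE libraries in the upper part of the control range. Rps4l gave 0.29 (adjusted p = 0.178), Rpl36al gave 0.25 (adjusted p = 0.203), and Rpl39, which lines the exit tunnel, gave 0.26 (adjusted p = 0.257). Rpsa had 130 to 205 CPM in control astrocytes and 171 to 219 CPM in CIE astrocytes, a difference of 0.19 (SE 0.09, adjusted p = 0.222). Rplp0 had 147 to 213 CPM and 175 to 242 CPM, a difference of 0.12 (95% interval -0.07 to 0.31). At the low end, Rpl30 lay at -0.14 (SE 0.19) and Rps27 at -0.11 (SE 0.28), both with few counts.

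In microglia, 77 of 79 members had a negative difference and the median was -0.19, against -0.01 over all genes. All 32 tested 40S proteins, 42 of 44 60S proteins and all 3 stalk proteins were negative. This direction rested to a large degree on microglia 19: without that mouse the median was -0.05, 22 members were positive and none had an unadjusted p under 0.05. Without CIE mouse 41, which had the highest share among CIE microglia (1.93%), the median was -0.25. With library total scaling it was -0.11 and the median of all genes was 0.06, so that 80.2% instead of 66.8% of all calls were higher.

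Rpl21 had the largest difference in microglia, with 237 to 489 CPM (median 295) in control mice and 205 to 326 CPM (median 238) in CIE mice. Its log2 difference was -0.32 (95% interval -0.61 to -0.04, edgeR adjusted p = 0.197), and the groups overlapped over most of the CIE range. Rpl13a, known for a role outside the ribosome in interferon-gamma dependent silencing of translation, lay at -0.32 (SE 0.14, adjusted p = 0.229), with 378 to 705 CPM against 281 to 454 CPM. Rpl39 gave -0.32 (SE 0.14, adjusted p = 0.251). These values rested in part on microglia 19, and without mouse 19 they were -0.18 (adjusted p = 0.396) for Rpl21, -0.17 (adjusted p = 0.465) for Rpl13a and -0.18 (adjusted p = 0.494) for Rpl39. Of the stalk, Rplp1 gave -0.29 (SE 0.14), Rplp0 -0.20 (SE 0.10) and Rplp2 -0.16 (SE 0.13), and without mouse 19 these were -0.13, -0.12 and -0.01. Rpsa had 295 to 585 CPM in control microglia and 268 to 496 CPM in CIE microglia, a difference of -0.01 (95% interval -0.34 to 0.31) that was 0.14 without mouse 19.

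Levels of cell type markers in the microglial libraries also differed between treatments. 9 of 10 neutrophil markers tested were higher in CIE microglia. The summed level of the neutrophil markers was 594 to 1191 CPM (median 967) in control mice and 779 to 7778 CPM (median 1058) in CIE mice, highest in mouse 41. The summed level of 10 microglial markers was 27647 to 39403 CPM in control mice and 19942 to 26683 CPM in CIE mice, and 2 of the 10 were called lower. Oligodendrocyte markers summed to 2048 to 7328 CPM (median 4289) in control microglia and to 2288 to 9508 CPM (median 6924) in CIE microglia, and 1 of 8 was called higher. Of all genes tested in microglia, 3.47% were called for CIE. The part of these cell types in the values of the ribosomal protein genes was not tested.

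In total homogenate, 47 members were positive and 34 negative, with a median of 0.01 and a range from -0.17 for Rpl30 to 0.15 for Rps14. The smallest adjusted p was 0.699. Rplp0 had 151 to 186 CPM in control mice and 147 to 229 CPM in CIE mice, a difference of 0.04 (95% interval -0.13 to 0.22), and Rpsa had 274 to 355 CPM and 243 to 445 CPM, a difference of 0.03 (95% interval -0.21 to 0.26). For both, the CIE mice spread over a wider range that held all control mice.

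**Figure D4:**
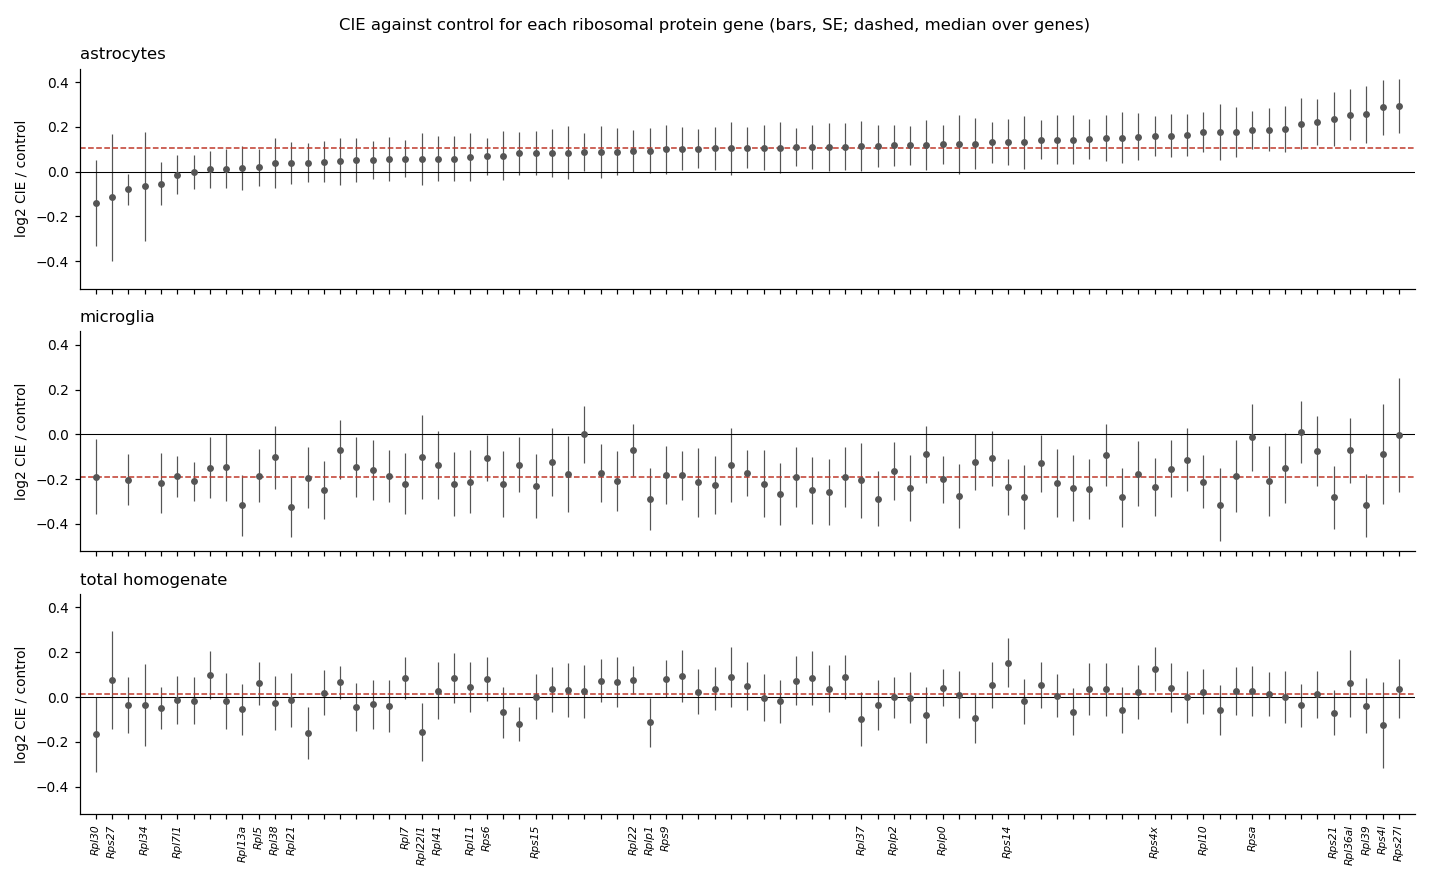
Log2 difference between CIE and control mice (y axis) of each ribosomal protein gene (x axis, those described in the text labelled) in astrocytes, microglia and total homogenate; points are edgeR estimates, bars give SE, and the dashed line is the median of the members. The medians are 0.11, -0.19 and 0.01, and no gene has an adjusted p under 0.05.

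The numbers of the mice fall into 3 ranges (03 to 08, 19 to 26 and 35 to 41), and the labels do not say what sets them apart. The difference in the mean log2 level of the members between CIE and control mice was, in the order of these ranges, -0.16, -0.35 and 0.04 for microglia, -0.03, 0.10 and 0.24 for astrocytes, and -0.10, -0.05 and 0.13 for total homogenate. In microglia the value of the range 19 to 26 was -0.08 without microglia 19, which leaves 2 control and 4 CIE mice there. The sign thus differed between ranges in every preparation, with and without that library. With the range in the fit, no member was called in any preparation, and in none did more than 10 members have an unadjusted edgeR p under 0.05. The share of all genes that did so in these fits is not given here.

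Whether CIE moved the members differently between preparations was tested over all 51 libraries. No member was called for microglia against astrocytes, microglia against total homogenate or astrocytes against total homogenate, where 0.529%, 0.828% and 0.00695% of 14379 genes were, and 26, 3 and 0 members had an unadjusted edgeR p under 0.05, against 10.9%, 11% and 4.99% of all genes. The medians were -0.30, -0.21 and 0.09. The largest differences between microglia and astrocytes were those of Rpl39 (-0.59, SE 0.20, adjusted p = 0.179) and Rps21 (-0.53, SE 0.18, adjusted p = 0.172), a 40S protein that lies near Rpsa. Rps21 had a median of 63.3 CPM in control and 76.7 CPM in CIE astrocytes, and of 160.1 CPM in control and 125 CPM in CIE microglia. Without microglia 19 the median between microglia and astrocytes was -0.15, 3 members had an unadjusted p under 0.05, and Rpl39 and Rps21 stood at -0.44 (adjusted p = 0.384) and -0.39 (adjusted p = 0.379).

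Within each preparation the members rose and fell together from library to library. The correlation of a member with the mean of the others had a median of 0.91 over the 17 astrocyte libraries and of 0.93 over those of microglia and of total homogenate, and it was over 0.8 for 69, 71 and 72 members. The first axis of variation held 74.6%, 70.6% and 80.3% of the members' variance. The lowest correlations were those of Rps27 in astrocytes (0.09), Rpl30 in microglia (-0.00) and Rpl34 in total homogenate (0.18), which were among the members with the fewest counts. Without microglia 19 the median in microglia was 0.86 over 16 libraries.

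**Figure D5:**
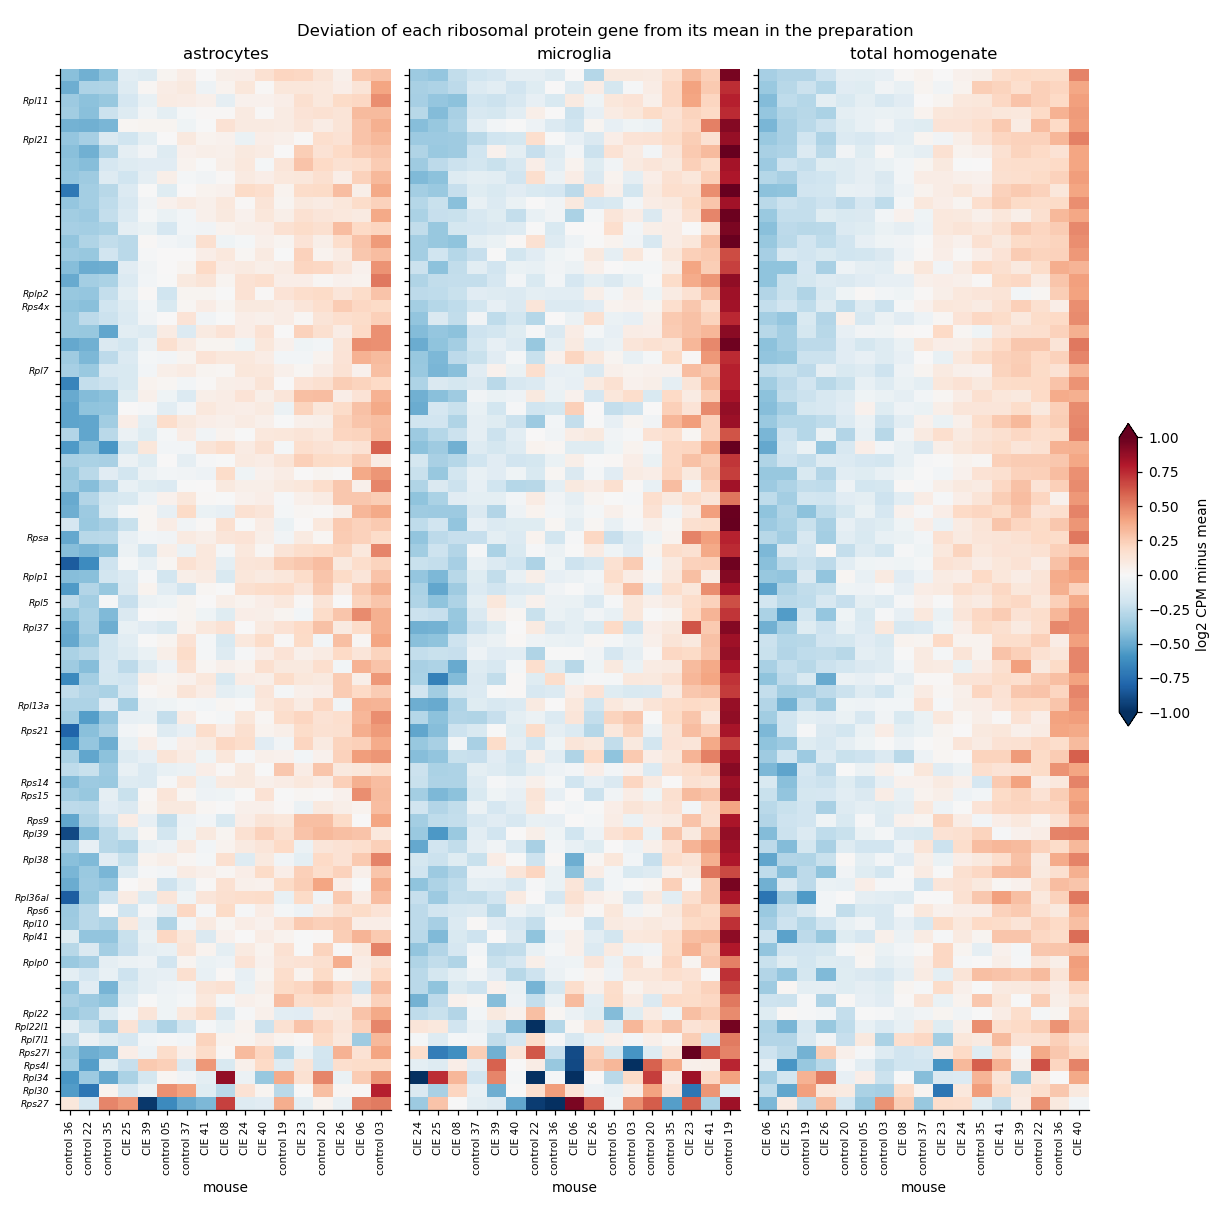
Log2 CPM of each ribosomal protein gene (rows, those described in the text labelled) minus its mean in the preparation, in each library (columns, ordered by the mean of the members within each preparation); colours are limited to -1 and 1. Most rows change colour together from left to right, and microglia of control mouse 19 form the strongest column at the right of the microglial panel.

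Among the 5 genes whose levels followed the mean of the members most closely over the 17 libraries were Tpt1 (0.92) and Fau (0.91) in astrocytes, Clic1 (0.96), Fau (0.95) and Tpt1 (0.93) in microglia, and Fau (0.97) and Capns1 (0.95) in total homogenate. Fau encodes a 40S protein fused to a ubiquitin-like protein, and Tpt1 is a TOP mRNA. The genes that ran most opposite were Aak1 (-0.93), Atp8a1 (-0.90) and Syt14 (-0.94). The 100 genes most like the members had median transcript lengths of 1101, 1266 and 1118 bases in the 3 preparations, and the 100 most opposite had 8763, 5335 and 5315 bases. The mean level of the members followed the gap between genes with transcripts under 1000 bases and genes over 5000 bases, with correlations over 17 libraries of 0.83 in microglia and 0.91 in both astrocytes and total homogenate. Without microglia 19 it was 0.74 over 16 microglial libraries. Its correlation with the log10 of the counts in genes was -0.08 in astrocytes, -0.32 in microglia and 0.40 for total homogenate, and with reads outside annotated genes, as a percent of the counts in genes, -0.48, 0.14 and -0.59. The members also followed the mean of the nuclear-encoded respiratory chain subunits (0.79, 0.75 and 0.84) and that of the mitochondrial ribosomal proteins (0.81, 0.79 and 0.85) over the same 17 libraries. All these values share the libraries and their scaling, and the part of transcript length in these levels was not tested. For microglia the paper reports less RNA on average, and a lower smallest RNA integrity score, than for astrocytes. The part of RNA quality and amount was not tested either. Other genes with transcripts under 1000 bases had a median difference between microglia and astrocytes of -0.23, where the members had 1.29, and of 0.12 between CIE and control astrocytes, where the members had 0.11. In microglia their median for CIE was 0.00, where the members had -0.19, and in total homogenate it was 0.04, where the members had 0.01.

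The members were also split by the pyrimidine run at the start, with no test. The median difference between microglia and total homogenate was 0.78 in the 26 with a run and 0.86 in the 34 without, and that between astrocytes and total homogenate was -0.53 and -0.38. Between CIE and control mice the medians were 0.08 and 0.11 in astrocytes and -0.18 and -0.19 in microglia.

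Related genes gave the following counts for CIE. None of the 21 TOP mRNAs for other proteins was called in any preparation, and their medians were -0.20 for microglia, 0.03 for total homogenate and 0.00 for astrocytes, and none of the 41 biogenesis factors was called. Of 25 genes of the mTORC1 pathway and regulators of TOP mRNAs, 1 was called in each preparation. Of all genes tested, 5.13% were called for astrocytes, 3.47% for microglia and 0.25% for total homogenate. The list was chosen with earlier results known, and a change of its genes as a set was not tested. The called gene was Ddit4 (Redd1), an inhibitor of mTORC1 that stress and glucocorticoids induce. Ddit4 had 30.6 to 54.6 CPM in control microglia and 76.8 to 220 CPM in CIE microglia, with no overlap, a log2 difference of 1.78 (SE 0.19, edgeR adjusted p = 8.78e-05). In astrocytes it had 81.5 to 144 CPM and 122 to 213 CPM, a difference of 0.67 (SE 0.15, adjusted p = 0.0130), and in total homogenate 30.8 to 45.2 CPM and 40.3 to 71.4 CPM, a difference of 0.52 (SE 0.11, adjusted p = 0.0444). Its response was larger in microglia than in total homogenate by 1.25 (adjusted p = 0.00233) and than in astrocytes by 1.09 (adjusted p = 0.0119). No test linked Ddit4 to the ribosomal protein genes.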

How the data were processed

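RNA of 51 libraries (poly(A), stranded kit, paired reads) was mapped by the authors, per the labels and the study's methods, with Cutadapt 1.8, STAR 2.5.0a on mm10, Picard 1.141 for removal of duplicates and HTSeq 0.6.1p1, and the deposited values are raw counts per gene. The annotation release and strand setting are not given in the sources used here. Levels are CPM scaled by TMM over all libraries. Differences were tested with edgeR 4.0.16 in R 4.3.3 (quasi-likelihood, TMM, filterByExpr, Benjamini-Hochberg over all genes tested, threshold 0.05), within each preparation for CIE, over the 24 control libraries for preparations, and over 51 libraries for differences between responses. The fit was tested on simulated data. SE is the log2 difference divided by the root of F. Alternatives were DESeq2 1.42.0, RLE and library total scaling, no filter, the mouse range as a term, the mouse as a replicate block, and each mouse left out; preparations in CIE mice and the fits without microglia 19 were added after seeing the data. The preparations pair by mouse, since they come from the same animal; deviations of the same mouse correlated with medians of 0.07, 0.03 and 0.03 in control mice, and 0.24, 0.22 and 0.06 in CIE mice. No library was left out. Named genes were Rplp0, Rpsa, Rps6, Rpl5, Rpl11, the stalk, the paralog pairs, the 5 members highest and lowest for CIE in each preparation, the 4 highest and lowest between preparations, and up to 3 genes of each related list by adjusted p. The members and lists were chosen with earlier results of these data known. Transcripts for shared windows came from GENCODE M21 and promoters from RefSeq. Some genes that this rule selects are not reported here.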

Additional observations from a re-analysis of the deposited data

Results flagged for a closer look

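Microglia of control mouse 19 stood apart from the other 7 control microglia libraries in 7 measures, each by a gap above Dixon's 95% limit. Its values were 2.32% for the share of counts in ribosomal protein genes, 712 CPM for Rplp1, 365 CPM for Rplp2, 585 CPM for Rpsa, 265 CPM for Rps6, 375 CPM for Rpl5 and 327 CPM for Rpl11, all the highest of their group. 48 groups were examined in this way, of which chance flags about 1 in 20, and the 7 measures come from 1 library and are not independent. Ddit4 responded to CIE more in microglia than in total homogenate by 1.25 on the log2 scale (edgeR adjusted p = 0.00233) and more than in astrocytes by 1.09 (adjusted p = 0.0119). This gene was picked by its adjusted p from a list chosen with earlier results known, and the list as a set was not tested.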

How the results depend on the processing

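No ribosomal protein gene was called for CIE under any alternative or with any mouse left out. Between preparations, scaling to library totals gave 5 members higher in astrocytes than in total homogenate, 1 member lower in microglia than in total homogenate, and a median of 0.997 between microglia and astrocytes. The count lower in microglia than in total homogenate was 1 without the filter, 1 without microglia of control mouse 19 and 2 in CIE mice, where the medians were 0.49 against total homogenate and 0.93 against astrocytes. The replicate block gave 70 instead of 73 members higher in microglia than in total homogenate and changed the call of Rpsa between microglia and total homogenate (0.25, adjusted p = 0.0805). The shares of all genes called under these alternatives are not given here. Signs turned as follows, and the cause was not tested. Between microglia and total homogenate, Rpl41 was -0.093 with RLE, -0.22 with library totals, -0.13 without the filter, -0.10 with DESeq2, -0.023 with the replicate block, -0.30 in CIE mice and -0.15 without microglia 19, and Rps15 was -0.090 with library totals, -0.23 in CIE mice and -0.0035 without microglia 19. Between microglia and astrocytes, Rps27l was 0.0038 without microglia 19. Between astrocytes and total homogenate, library totals gave 0.051 for Rps6, 0.0039 for Rps4x and 0.022 for Rps4l, and CIE mice gave 0.30 for Rps4l. For CIE in microglia, library totals gave 0.073 for Rpsa, 0.082 for Rps27l and 0.017 for Rpl10a, Rps27l was 0.0070 with RLE, 0.00095 without the filter and 0.0017 with DESeq2, and Rpl14 was -0.0015 with the mouse range. Leaving out 1 mouse at a time gave ranges that crossed 0 in astrocytes for Rpl5 (-0.027 to 0.051), Rps27 (-0.22 to 0.026), Rpl34 (-0.19 to 0.064) and Rpl18 (-0.11 to 0.0084). In microglia this held for Rpsa (-0.079 to 0.14), Rpl36 (-0.052 to 0.14), Rpl14 (-0.046 to 0.14), Rps27l (-0.12 to 0.11) and Rpl10a (-0.12 to 0.051), and in total homogenate for Rplp0 (-0.011 to 0.070) and Rpsa (-0.047 to 0.072). Microglia had the fewest counts, and Rpl34, Rps27, Rpl30, Rps27l and Rps4l rest on few counts everywhere.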
